A study of Danio rerio with 18 samples.

Results

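Cells that divide copy their genome once per cycle. The origin recognition complex and the MCM helicase mark and open the origins of replication, DNA polymerases with their clamp and clamp loader copy the strands, and a ligase seals them. Cyclins with their kinases, the E2F and DP transcription factors and the mitotic kinases time these steps, so the mRNAs of these genes are commonly used as a readout of proliferation, which is high in growing fish larvae and is kept up in adults in tissues such as gut, blood and gonad.

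The genes described here are those whose symbol places them in this machinery, that is the families mcm, orc, gins, rfc, rpa, pola, pold, pole and prim, the cyclins A, B, D and E, the numbered cdk genes, the cdc6, cdc7, cdc14, cdc20, cdc25 and cdc45 genes, rrm1, rrm2, plk, aurk, bub, e2f and tfdp, with pcna, lig1, mki67, top2a and kif23. The rule found 139 spots and 91 genes among 23232 spots and 9259 named genes of a spotted oligonucleotide array, and each gene was represented by its brightest probe. Of the 91 genes, 10 carry such a prefix by name only: cdc73, cdk2ap2, cdk5r1b, cdk5r2a, cdk5r2b, cdk5rap2, cdk5rap3, mcmbp, mcmdc2as and poldip2 encode partners, regulators or unrelated factors, or are named after a neighbouring gene. All 91 were measured, but the level of most was low, as described next.

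Wild-type zebrafish larvae were exposed to 500, 1500 or 4500 µg/L bisphenol-A (BPA) or to the vehicle, starting 3 hours after fertilization and lasting 7 days. Every group, controls included, received 0.05% ethanol. Each array compared Cy5-labelled RNA of 50 pooled whole larvae with Cy3-labelled RNA of whole wild-type adults, pooled 9 to 1 from males and females. The 18 scans held 16 arrays, since control replicates 4 and 5 shared 99.83% of their Cy5 values and replicates 3 and 4 at 1500 µg/L shared 99.98%, against at most 0.478% for any other pair, and each such pair was counted as 1 array. The control group thus had 4 arrays, the 500 µg/L group 5, the 1500 µg/L group 3 and the 4500 µg/L group 4. The larvae were whole fish, so fewer dividing cells and less mRNA per cell cannot be told apart. The adult pool is 1 RNA sample that was never labelled with Cy5, so that larva against adult and Cy5 against Cy3 cannot be told apart, and tests of the ratio leave out the spread between adults.

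Each comparison was fitted in a pair of ways. The kept spots are those with a deposited ratio, and a probe entered that fit with at least 3 such values in each group, which left 21 of the 91 genes and 3878 of 22980 probes. The fit with every spot held all 91 genes, and values below are from it unless kept spots are named. A spot was called above background where at least 50% of its pixels exceeded the local background by 2 SD. By this measure 14 genes (15.4%, against 11.2% of all probes) were above background in the larval channel on all 4 control arrays, 36 (39.6%, against 28.7%) were so in the adult channel, and 50 (54.9%, against 61.5%) were above background in the larval channel on no control array. The larval channel was above background on all 16 arrays for 8 genes (mcm7, orc1, rpa1, cdk7, e2f3, e2f4, tfdp1a and mki67) and on none for another 8 (pold2, primpol, lig1, rfc5, ccnb1, cdk1, e2f8 and tfdp2). A ratio of a gene of the second kind has no measured larval level behind it.

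The first question was how the replication and cell cycle genes of unexposed larvae stood against the adult pool. Members of the same complexes lay on both sides. The DNA polymerase alpha genes pola1 and pola2, the helicase gene mcm7, gins2, gins4, rpa1, e2f4, mki67 and cdk5r2b had higher ratios, and rfc5, cdk1, aurkb, lig1, rrm1, cdk2ap2, e2f8, mcm3, ccna2, cdk20, rrm2 and rfc2 had lower ones. By limma's moderated test with Benjamini-Hochberg adjustment over all probes, 9 of 91 genes (9.89%) were higher in larvae, against 5.5% of all probes, and 12 (13.2%) were lower, against 13% of all probes. At an unadjusted p under 0.05 the count was 32 (35.2%, against 29.8% of probes). The median log2 ratio of the 91 genes was 0.02, the same as the 0.02 of all probes. Among the kept spots 4 of 21 genes (19%, against 13.4% of probes) were higher, mcm7, rpa1, e2f4 and mki67, and 1 (4.76%, against 6.81%) was lower, rfc2. The plot of all 91 ratios by role shows that the calls were spread over most roles.

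**Figure D1:**
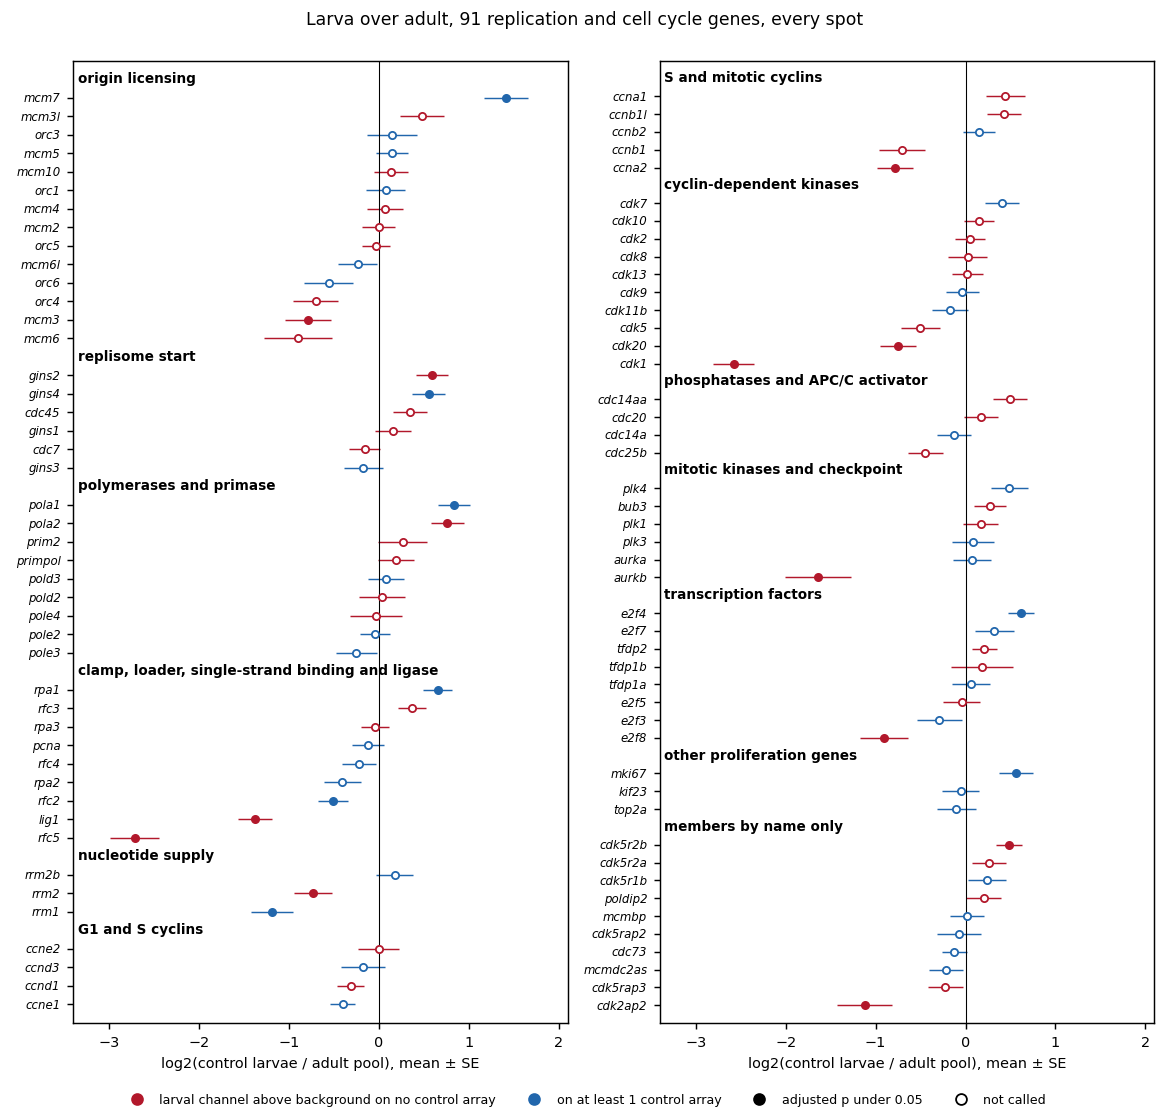
The log2 ratio of control larvae over the adult pool is plotted for each of the 91 genes, grouped by role, as the mean of 4 control arrays with the standard error of the limma fit. Filled points passed an adjusted p of 0.05, and red points mark genes whose larval channel was above background on no control array. Most lower calls are red, among them rfc5 at -2.72 and cdk1 at -2.58, while mcm7 at 1.41 is the highest point.

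Detection of the called genes follows in part from the calls, since a low ratio of larval over adult signal goes with a dim larval channel. Of all probes, called or not, 11.2% were above background in the larval channel on all control arrays and 61.5% on none. No share of the called probes is set beside the counts here, so they are not read as particular to these genes. Of the 9 higher genes, 5 were above background in the larval channel on all 4 control arrays (mcm7, rpa1, e2f4, mki67 and gins4) and 3 on none (pola2, gins2 and cdk5r2b). Of the 12 lower genes, 0 were above background in that channel on all control arrays, 10 were so on no control array, and the exceptions were rrm1 and rfc2 with 3 of 4 arrays each. The adult channel of 6 of these 12 genes was above background on all 4 control arrays. Ratios above 0 on all 16 arrays were seen for mcm7, pola1 and e2f4 (3.3%, against 2.69% of probes), and below 0 on all 16 for rfc5, rrm2 and cdk1 (3.3%, against 2.99%). Leaving out 1 control array at a time kept the calls of mcm7, pola1, e2f4, rfc5, cdk1, aurkb, lig1 and rrm1. It ended the other 13 calls, those of rpa1 (without replicate 4), pola2 (without 2), ccna2 (without 3), cdk20 and rrm2 (without 1 or 4), cdk2ap2 (without 3 or 4), rfc2 (without 1, 2 or 3), gins2 and mki67 (without 1, 3 or 4), gins4 and e2f8 (without 2, 3 or 4), and mcm3 and cdk5r2b (without any of the 4), with adjusted p from 0.0503 to 0.268. For gins4 and mki67 the call also ended without some of the BPA arrays, which share the fit.

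The helicase and origin genes came first in the order of the cycle. Mcm7, a subunit of the ring-shaped replicative helicase, had log2 ratios of 1.76, 1.23, 1.17 and 1.5 on the control arrays and was above 0 on all 16 arrays. Its mean of 1.41 (SE 0.24) is 2.66-fold higher in larvae than in the adult pool, with adjusted p = 0.000326 with every spot and 0.000232 with kept spots. The other subunits of that ring did not share this ratio. Mcm3 was lower at -0.79 (SE 0.26, adjusted p = 0.0394), with a larval channel above background on no control array, mcm6 stood at -0.90 (adjusted p = 0.115), and mcm2, mcm4 and mcm5 lay at 0.00, 0.07 and 0.14. Of the origin recognition genes, orc4 at -0.70 came nearest to a call (adjusted p = 0.0633), and orc1, bright on all arrays, stood at 0.08. In all, 1 of 14 licensing genes was higher (7.14%, against 5.5% of all probes) and 1 was lower (7.14%, against 13%).

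Among the genes that turn the helicase on, the GINS subunits gins2 and gins4 were higher, at 0.59 (adjusted p = 0.0245) and 0.55 (adjusted p = 0.0448). Gins4 was above background in both channels on all 4 control arrays, which makes its ratio 1.47-fold, while gins2 was above background in neither channel on any of them and is given without a fold. Gins1 and gins3 of the same complex lay at 0.16 and -0.17, and cdc45, their partner, at 0.34 (adjusted p = 0.23).

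The subunits of DNA polymerase alpha, which lays down the primers, were both higher. Pola1, the catalytic subunit, had log2 ratios of 0.84, 0.38, 1.56 and 0.58 on the control arrays and was above 0 on all 16 arrays, with a mean of 0.84 (SE 0.18, 1.79-fold, adjusted p = 0.00181). The larval channel of pola1 was above background on 2 of the 4. Pola2 followed at 0.76 (adjusted p = 0.00649), with the larval channel above background on none and the adult channel on 1 of 4 control arrays. The 7 other genes of the group, of the delta and epsilon polymerases and the primases, passed no test, and pole3 had the smallest p of them (-0.25, adjusted p = 0.517).

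The fork factors held the lowest ratio of the whole set. Rfc5, a subunit of the clamp loader, had log2 ratios of -2.49, -2.83, -2.78 and -2.75 on the control arrays and was below 0 on all 16 arrays (mean -2.72, SE 0.27, adjusted p = 1.21e-06). Its adult channel was above background on all 16 arrays and its larval channel on none, so the larval level was at least 2.53-fold lower than the adult one. This bound is a mean over the control arrays. It sets the adult level against the faintest signal above background on each array, or against the larval level where that was higher. On control arrays, 8 genes had an adult channel always and a larval channel never above background (8.79%, against 8.8% of all probes). The reverse was seen for 0 genes and 0% of all probes. A bound of this kind, given for rfc5, cdk1, aurkb and cdk2ap2, could thus only come out lower in larvae. The loader subunits did not move as a block, since rfc2 was lower by less (-0.51, SE 0.17, 1.43-fold, adjusted p = 0.0375), rfc4 stood at -0.22 (adjusted p = 0.475) and rfc3 at 0.37 (adjusted p = 0.118).

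Lig1, the ligase that joins Okazaki fragments, had ratios of -1.5, -1.41, -1.64 and -0.98 on the control arrays (mean -1.38, SE 0.19, adjusted p = 3.32e-05), with the larval channel above background on no array and the adult channel on 3 of 4. Rpa1, the large subunit of the single-strand binding protein, was higher in larvae at 0.65, 0.31, 0.51 and 1.15 (mean 0.65, SE 0.16, 1.57-fold, adjusted p = 0.00619), and rpa2 and rpa3 stood at -0.40 and -0.04 without a call. Pcna, the sliding clamp and a common marker of proliferation, had ratios of -0.12, -0.22, 0.02 and -0.16 on the control arrays, which lay on both sides of 0 (mean -0.12, SE 0.18, adjusted p = 0.707).

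Ribonucleotide reductase makes the deoxynucleotides. The large subunit gene rrm1 was lower in larvae, with ratios of -1.07, -0.64, -1.07 and -1.95 (mean -1.18, SE 0.23, 2.27-fold, adjusted p = 0.00111), and the small subunit gene rrm2 was lower at -0.73 (SE 0.21, adjusted p = 0.0192) and below 0 on all 16 arrays. Rrm2b, a further small subunit gene, stood at 0.18 (adjusted p = 0.611). Thus 2 of 3 genes of this role were lower, a group too small to set against the 13% of all probes, and the larval channel of rrm2 was above background on no control array.

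Of the 4 cyclins of G1 and early S phase 0 passed this test by limma, and 1 had an unadjusted p under 0.05, ccne1 at -0.40 (adjusted p = 0.0554). Ccne2, ccnd3 and ccnd1 stood at 0.00, -0.18 and -0.31. Ccnd1, the D-type cyclin that responds to growth signals, is printed as 15 spots, and their ratios on 1 control array had an SD of between 0.76 and 0.86 on the log2 scale, with a range of -2.23 to 0.83 on control replicate 3. Whether the 15 spots carry the same oligonucleotide is not known here, so the mean of ccnd1 is uncertain. Their spread on 1 array is a different measure from the gene means over 4 control arrays. Of the later cyclins, ccna2 was lower at -0.78 (SE 0.20, adjusted p = 0.00894), ccnb1 stood at -0.71 (adjusted p = 0.0583) and the related ccnb1l at 0.43 (adjusted p = 0.13). The larval channel of ccna2 and ccnb1 was above background on no control array.

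Cdk1, the kinase that drives entry into mitosis and which the array lists under its older name cdc2, had log2 ratios of -2.38, -2.75, -2.95 and -2.24 on the control arrays (mean -2.58, SE 0.23, adjusted p = 3.85e-07). It was below 0 on all 16 arrays. The adult channel was above background on all arrays and the larval channel on none, which gives a larval level at least 1.91-fold lower. Cdk20 was lower at -0.75 (adjusted p = 0.0123), cdk5, best known from neurons, stood at -0.50 (adjusted p = 0.122), and cdk2, the S phase kinase, at 0.05. The other cdk genes, several of which act in transcription, passed no test.

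Among the mitotic kinases, the checkpoint genes, the phosphatases and cdc20, aurkb, a kinase of the chromosomal passenger complex, was lower. Its ratios were -2.0, -2.34, -2.0 and -0.23 on the control arrays (mean -1.64, SE 0.37, adjusted p = 0.00342). As a mean over these arrays, the larval level was at least 1.52-fold lower than the adult one. Control replicate 4 lay far above the other 3, and its own ratio of -0.23 falls short of that bound. Plk4, the kinase of centriole duplication, at 0.49 (adjusted p = 0.117), bub3, of the spindle checkpoint, at 0.27 (adjusted p = 0.341), cdc14aa at 0.49 (adjusted p = 0.088), cdc25b at -0.45 (adjusted p = 0.128) and cdc20 at 0.17 (adjusted p = 0.598) were not called.

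Of the transcription factors that set G1 and S phase genes, e2f4 was higher in larvae on all 16 arrays, with control ratios of 0.84, 0.54, 0.35 and 0.72 (mean 0.61, SE 0.14, 1.53-fold, adjusted p = 0.00485), and e2f8, a repressor of the family, was lower at -0.91 (SE 0.27, adjusted p = 0.0219) with the larval channel above background on no array. Tfdp2 stood at 0.21 (adjusted p = 0.34). Mki67, which encodes the Ki-67 antigen of cycling cells, was higher at 0.54, 0.17, 1.01 and 0.53 (mean 0.56, SE 0.19, 1.48-fold, adjusted p = 0.0452), while top2a and kif23, of chromosome segregation and cytokinesis, stood at -0.10 (adjusted p = 0.799) and -0.06 (adjusted p = 0.891). Of the genes named for partners only, cdk5r2b was higher at 0.48 (adjusted p = 0.0279) and cdk2ap2 lower at -1.12 (adjusted p = 0.0137, at least 1.87-fold as a mean over the control arrays).

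Several gene symbols were given to more than 1 probe. Probe sequences were not checked, so whether such probes read the same mRNA was not tested. In 27 genes 34 further probes were measured, and 20 of the 34 had the same sign of the larva over adult ratio as the brightest probe. The probes of cdk1 differed in sign, the second at 0.38 (adjusted p = 0.177) against -2.58. So did those of aurkb (0.31 against -1.64), rrm2 (0.04 for the third probe against -0.73) and e2f4 (-0.23 against 0.61). The second probe of cdk1 was above background in neither channel on any control array. A further probe of mcm6 gave 0.48 (adjusted p = 0.211) against -0.90. The second probe of rrm1 gave -0.18 against -1.18. For pcna the order was the reverse, since its second probe was lower in larvae at -1.31 (adjusted p = 0.000149) while the brightest one was not called, and the same held for a further probe of cdk8 (-1.68, adjusted p = 6.91e-05) and of kif23 (-0.94, adjusted p = 0.00522). These second probes were above background in the larval channel on at most 1 of the 4 control arrays. Further probes of bub3 (0.45, adjusted p = 0.0489), tfdp1a (0.85, adjusted p = 0.00656) and mcmdc2as (-0.63, adjusted p = 0.0232) were also called while the brightest were not. Their larval channel was above background on 1, 3 and 2 of the 4 control arrays, in that order.

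**Figure D2:**
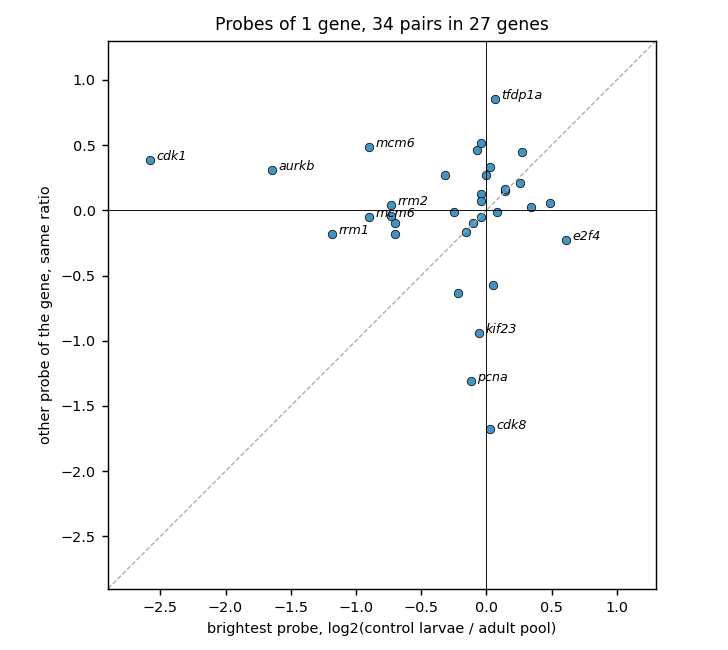
Each of 34 points is a further probe of 1 of 27 genes, with the log2 ratio of control larvae over the adult pool of the gene's brightest probe on the x axis and of the further probe on the y axis. Points on the dashed line would agree, and cdk1, aurkb, cdk8 and mcm6 lie farthest from it.

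Genes of cell division outside the rule and markers of cells that could enter the adult pool were read in the same way. Of 91 further cell cycle genes listed, 62 were on the array, and 4 were higher in larvae (6.45%, against 5.5% of all probes) and 2 lower (3.23%, against 13%). Cdca8, a partner of aurkb in the passenger complex, was higher at 0.88 and wee1, the kinase that restrains cdk1, at 0.92, while cdc27, a subunit of the anaphase-promoting complex, was lower at -2.05 and prc1a, of the spindle midzone, at -1.09. Of 12 measured germ cell genes dnd1 was lower in larvae at -1.13 (adjusted p = 0.000259) and piwil1 higher at 0.74 (adjusted p = 0.00584). Each is 8.33% of the list, against 13% of all probes lower and 5.5% higher. Of 10 oocyte genes the egg coat genes zp3a.1 and zp3 were lower at -1.43 (adjusted p = 0.000384) and -1.07 (adjusted p = 0.0483), which is 20%, against 13% of all probes. Ratios above 0 were seen for 4 of the 10, among them gdf9 at 0.45 (adjusted p = 0.0775). The medians of these lists were 0.04 and -0.20. Of 6 lens and retina genes, which include ccnd1 from the 91 genes, opn1sw1 was lower at -0.95 (adjusted p = 0.0103). This is 16.7%, against 13% of all probes. Of 4 genes of red blood cells 0 passed by limma, with 1 at an unadjusted p under 0.05. These lists are too small to set their shares against those of all probes. The larval channel of cdc27, prc1a, dnd1, zp3a.1 and opn1sw1 was above background on no control array, and that of zp3 on 2 of 4. Among the higher genes it was so on 4 for wee1, 3 for cdca8 and 1 for piwil1. For ccnf and cks1b, also higher, it was so on none. The part of adult germ cells in the lower ratios was not tested.

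The second question was whether BPA changed these genes in larvae. Each BPA group was set against the control group through ratios to the same adult RNA, so a difference between groups can come from either channel. At 500 µg/L 0 of 91 genes were called by limma, and 0% of all probes were. At 1500 µg/L 0 were called, against 0.0131% of all probes. At 4500 µg/L 3 genes (3.3%) passed an adjusted p of 0.05, against 3.08% of all probes, namely lig1 and cdk1 with higher ratios (2.2%, against 2.78%) and tfdp1a with a lower one (1.1%, against 0.296%). With kept spots 0 of 21 genes were called at any concentration, against 0%, 0% and 0.0258% of probes. The plot of the differences at each concentration gives the genes around medians near 0.

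**Figure D3:**
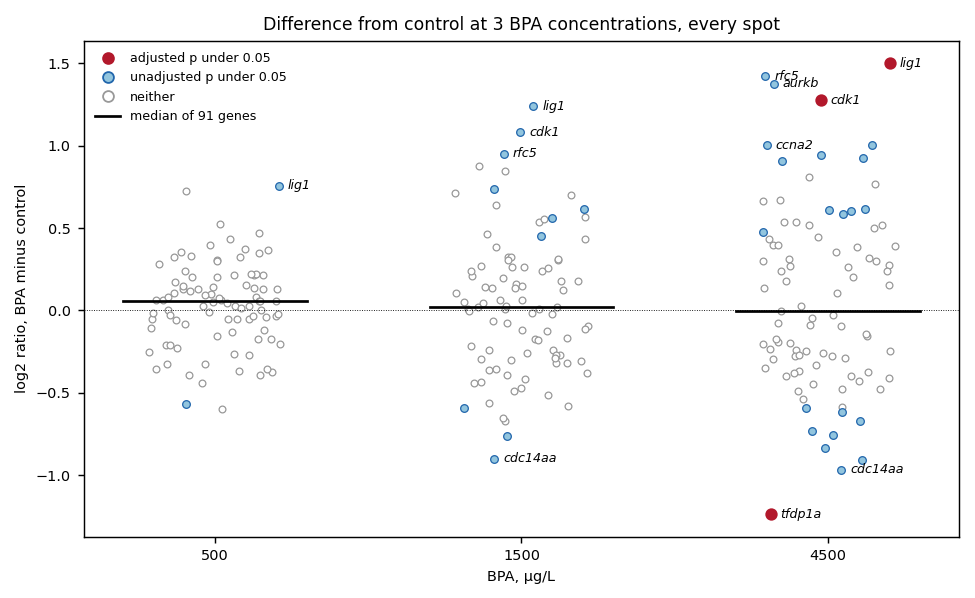
Each point is 1 of 91 genes and gives the difference of its log2 ratio between a BPA group (x axis, µg/L) and the control group. Red points passed an adjusted p of 0.05 (3 genes, all at 4500 µg/L), blue points an unadjusted p under 0.05, and the black line is the median of the genes.

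At an unadjusted p under 0.05, limma found 2, 10 and 23 of 91 genes (2.2%, 11% and 25.3%) at 500, 1500 and 4500 µg/L, beside 3.72%, 11.2% and 21.8% of all probes. With kept spots the counts were 0, 1 and 5 of 21 genes (0%, 4.76% and 23.8%), beside 1.47%, 7.19% and 20.5% of probes. The median difference of the 91 genes was 0.06, 0.02 and 0.00 at the 3 concentrations, against 0.02, 0.04 and 0.02 for all probes. An F-test over the 3 BPA comparisons gave 8 genes under a false discovery rate of 20% (8.79%, against 6.29% of probes), namely lig1, tfdp1a, cdk1, mcmdc2as, cdc14aa, cdk5rap2, cdc7 and rfc5, and 0 of 21 with kept spots (0% of probes). These shares were close to those of all probes. Of the 34 further probes, 16 had the same sign of the 4500 µg/L difference as the brightest probe of their gene.

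Tfdp1a, which encodes a DP partner of the E2F factors and is listed on the array as tfdp1l, was the called gene with a measured level in both channels on all 16 arrays. Its log2 ratios were -1.49, -0.94, -1.79 and -0.46 at 4500 µg/L, against -0.05, -0.04, 0.13 and 0.22 on the control arrays. All 4 exposed arrays lay below all 4 controls, and the exposed arrays differed more among themselves. The difference was -1.23 (SE 0.30, 2.35-fold lower, adjusted p = 0.0327), and with kept spots, which hold the same values, adjusted p = 0.116. At 500 µg/L the ratios ran from -0.43 to 0.81 and at 1500 µg/L from -0.54 to 0.02, with differences of -0.10 and -0.39 and no call. The larval channel was 1.01 lower on the log2 scale at 4500 µg/L and the adult channel 0.22 higher, as the plot of both channels shows. The call ended without any 1 of control replicates 1, 2 and 3 or of replicates 1, 2 and 3 at 4500 µg/L (-1.31 to -1.03, adjusted p from 0.0686 to 0.109). A second probe of tfdp1a did not share the difference (0.14, adjusted p = 0.819), and it was above background in each channel on 3 of 4 control arrays.

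Cdk1 had log2 ratios of -0.91, -0.54, -1.43 and -2.34 at 4500 µg/L, against -2.38, -2.75, -2.95 and -2.24 on the control arrays, so that 3 exposed arrays lay above every control and 1 lay within the controls. The difference was 1.28 (SE 0.32, adjusted p = 0.0377), with 1.08 at 1500 µg/L (adjusted p = 0.286) and 0.32 at 500 µg/L (adjusted p = 1). The larval channel was above background on none of the 16 arrays, so no fold is given for cdk1. The call ended without any 1 of control replicates 1, 2 and 3 or of replicates 1, 2 and 3 at 4500 µg/L (1.02 to 1.34, adjusted p from 0.0698 to 0.135). Its second probe differed by 0.06 (adjusted p = 0.927) and was above background in neither channel on any control array.

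Lig1 had the largest positive difference of the 91 genes at 4500 µg/L. Its ratios there were 0.13, 0.53, -0.33 and 0.15, against -1.5, -1.41, -1.64 and -0.98 on the control arrays, with no overlap (difference 1.5, SE 0.27, adjusted p = 0.0128). By their means the other groups lay in between, 500 µg/L with ratios of -1.09 to -0.38 and a difference of 0.76 (adjusted p = 1), and 1500 µg/L with ratios of -0.79 to 0.32 and a difference of 1.24 (adjusted p = 0.174). The larval channel of lig1 was above background on none of the 16 arrays. On the log2 scale it was 0.52 higher at 4500 µg/L than on control arrays, and the adult channel, which held the same RNA on every array, was 0.98 lower. Without replicate 2 at 4500 µg/L the difference was 1.36 (adjusted p = 0.0615). The larger share of the ratio's difference thus lay in the reference channel, and no fold is given.

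**Figure D4:**
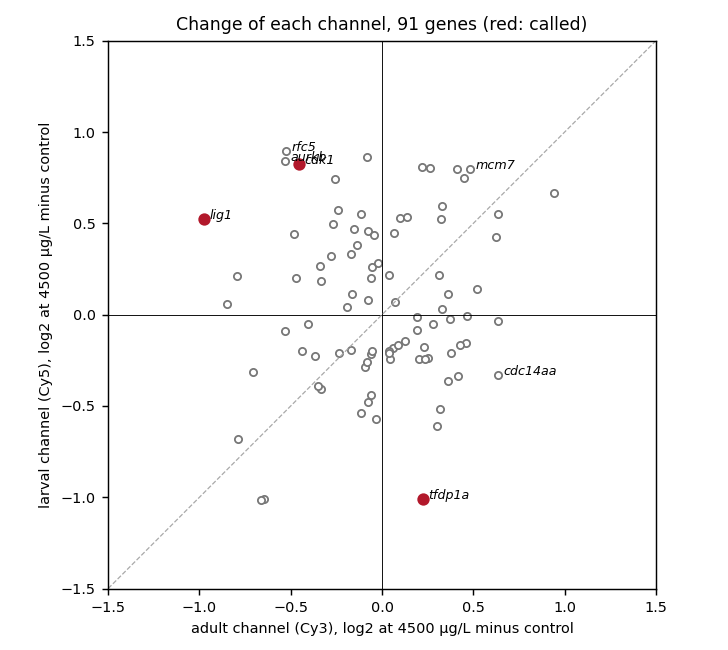
For each of 91 genes the mean log2 level of the adult channel (x axis) and of the larval channel (y axis) at 4500 µg/L is given minus that on control arrays, and red points are the 3 called genes. Tfdp1a lies 1.01 below 0 on the larval axis and near 0 on the adult axis, while lig1 lies 0.98 below 0 on the adult axis.

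Arrays at the higher concentrations differed from the others in the adult channel's background. Its median was 129 and 92 units on replicates 1 and 3 at 1500 µg/L and 110 and 111 units on replicates 2 and 3 at 4500 µg/L, against 162 to 247 units on the other 12 arrays. With a block for these arrays 0 genes were called at 4500 µg/L (adjusted p = 0.0708 for lig1, 0.235 for cdk1 and 0.197 for tfdp1a). Without these arrays the differences were 1.52, 0.96 and -1.04 for the same genes, with 0 calls (adjusted p = 0.112, 0.309 and 0.267), and 2 arrays were left at 4500 µg/L. That alternative was chosen after seeing the data. At 1500 µg/L only replicate 2 was left, a lone array assumed to vary like the other groups, and 1 gene, mcm6, was then called (2.40, adjusted p = 0.0311), beside 207 of all probes (0.901%). Replicate 2 gave mcm6 a ratio of 1.5 and the left-out replicates gave -1.27 and -1.31, against a mean of -0.90 on control arrays, and the larval channel of mcm6 was above background on no array at 1500 µg/L.

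**Figure D5:**
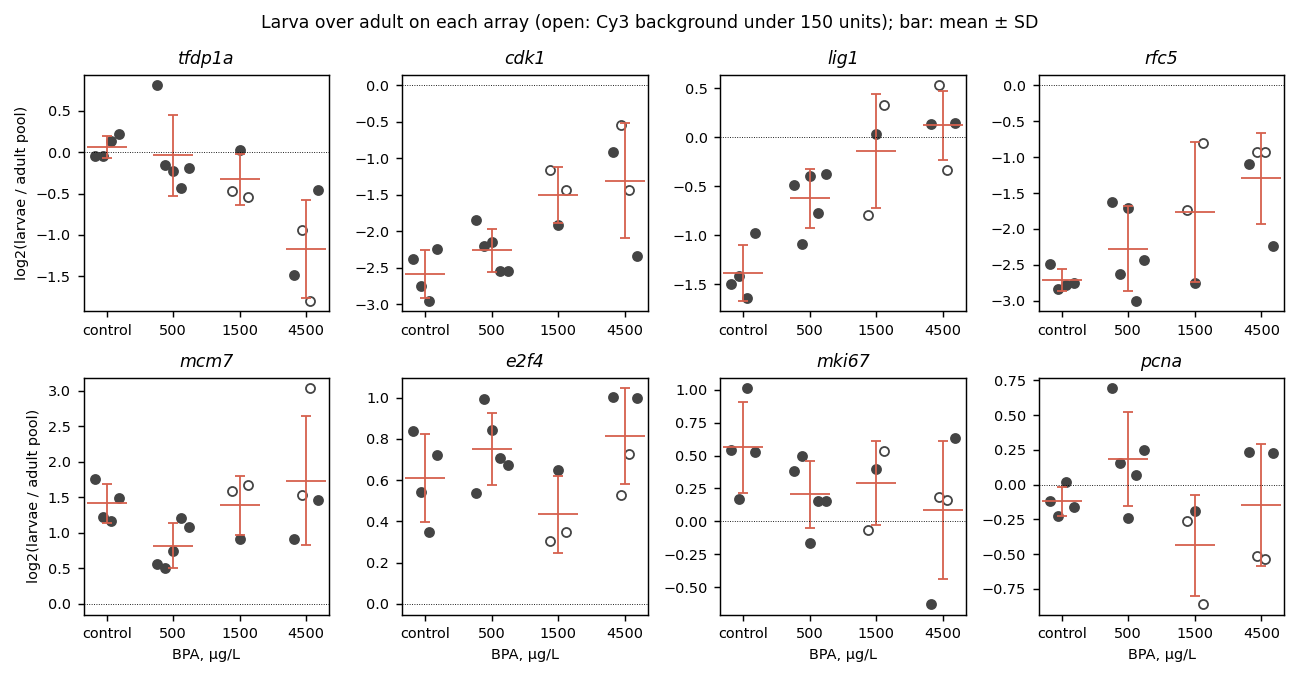
The log2 ratio of larvae over the adult pool on each of the 16 arrays is plotted for 8 genes, with the mean and SD of each group in red and the BPA concentration on the x axis. Open points mark the 4 arrays whose Cy3 background lay below 150 units, and for tfdp1a all 4 arrays at 4500 µg/L lie below the control arrays.

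The genes next to a call at 4500 µg/L were rfc5 (1.42, adjusted p = 0.0516), cdc14aa (-0.97, adjusted p = 0.0578) and ccna2 (1.00, adjusted p = 0.0585). Rfc5 had ratios of -1.09, -0.93, -0.93 and -2.23 there, against -2.49, -2.83, -2.78 and -2.75 on the control arrays, with no overlap but no larval signal above background in either group. Cdc14aa, a phosphatase of the cdc14 family, had ratios of -0.46, -0.56, -0.69 and -0.19, against 1.31, 0.43, 0.51 and -0.28, with 1 control among the exposed arrays. At 1500 µg/L the smallest p-values belonged to lig1, cdk1, cdc14aa (-0.90), bub3 (-0.76) and cdk20 (0.73), and at 500 µg/L to lig1, pola2 (-0.57), tfdp2 (-0.37), cdc73 (0.35) and gins2 (-0.44). The smallest adjusted p among them was 0.174, for lig1 at 1500 µg/L. Without replicate 4 at 4500 µg/L, rfc5 (1.73, adjusted p = 0.00912), cdc14aa (-1.06, adjusted p = 0.0264) and ccna2 (1.15, adjusted p = 0.0198) passed, and without control replicate 4 cdc14aa did (-1.22, adjusted p = 0.0151). Rfc5 and ccna2 also passed without replicate 2 at 1500 µg/L, with adjusted p = 0.031 for rfc5 and 0.0245 for ccna2, and rfc5 passed without replicate 3 at 1500 µg/L (adjusted p = 0.037).

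Genes often read as markers of proliferation gave no call at 4500 µg/L. Pcna had ratios of 0.24, -0.52, -0.53 and 0.23, against -0.12, -0.22, 0.02 and -0.16 in controls (difference -0.03, SE 0.25). Mki67, well above background on every array, had -0.63, 0.18, 0.16 and 0.63, against 0.54, 0.17, 1.01 and 0.53 (difference -0.47, SE 0.27, adjusted p = 0.316). For both the exposed arrays spanned the controls or overlapped them. The second probe of pcna read differently, with a difference of 0.87 (adjusted p = 0.0996). Its larval channel was above background on no control array.

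The differences of the rest were 0.52 for mcm2, -0.24 for mcm5, 0.32 for mcm7, -0.54 for top2a, -0.26 for kif23, 0.61 for ccnd1, -0.49 for ccne2 and 0.54 for ccnb1, each without a call. Second probes had the other sign for kif23 (0.89, adjusted p = 0.112), mcm2 (-0.60, adjusted p = 0.234) and top2a (0.10), and the same sign for ccnd1 (0.09). The larval channel of these second probes was above background on no control array. Ribonucleotide reductase gave 0.91 for rrm1 (adjusted p = 0.12) and 0.16 for rrm2. By role, the 9 clamp, loader and ligase genes had a median difference of 0.59 with every spot, with 6 of 9 above 0, but of -0.15 over the 3 of them with kept spots, and lig1 and rfc5 among the 9 had no larval signal above background on any array. The 9 polymerase and primase genes had a median of -0.23 with 1 of 9 above 0, and of -0.23 over the 2 with kept spots, beside 0.02 for all probes with every spot and -0.17 with kept spots. The 14 origin licensing genes had a median of 0.35 with 11 above 0, but of -0.29 over the 3 with kept spots. Of the 6 genes that turn the helicase on, 1 was above 0 (median -0.14). Of all 22980 probes, 11925 were above 0. Not all roles are given, and roles this small cannot be set against all probes.

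At 4500 µg/L 6 genes (6.59%, against 5.59% of probes) lay above the controls on every array, orc6, lig1, rfc5, ccne1, ccna2 and cdc73, and 3 (3.3%, against 2.86%) lay below, ccnb2, cdk2 and tfdp1a. At 1500 µg/L 4 genes (4.4%, against 6.35%) lay above and 2 (2.2%, against 3.64%) below, and at 500 µg/L 1 (1.1%, against 0.866%) lay above and 2 (2.2%, against 0.796%) below. Only cdc73 lay above the controls at all 3 concentrations, with differences of 0.35, 0.45 and 0.48 and no call, and these comparisons share the control arrays. Direct comparisons of 4500 with 500 and with 1500 µg/L, chosen after seeing the data, called 0 of 91 genes by limma, with the smallest adjusted p at 0.077 for mcmdc2as (-1.06) and 0.0844 for tfdp1a (-1.13) against 500 µg/L. No share of all probes is set beside these counts, so they are not read as particular to these genes.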

How the data were processed

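Total RNA of 50 pooled larvae (Cy5) was hybridised with the adult reference (Cy3) on 1 array, 10 µg each. The authors scanned the arrays and deposited, per spot, unnormalized foreground and background intensity values and the percent of pixels over background. The authors also deposited log2 ratios after Lowess normalization for unflagged spots, 5127 to 19980 per scan. In 1 file 16654 lines were shifted by 1 column, which was corrected.

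In limma 3.58.1 (R 4.3.3), background was removed by normexp (mean foreground, median background, offset 50), followed by loess within each array. Spots of 1 accession and repeated scans were averaged. Group means were fitted by lmFit and eBayes with 1 spread over the 16 arrays. The control mean against 0 is larva over adult, and each BPA mean minus the control mean is a BPA difference. The adjusted p is Benjamini-Hochberg over all probes fitted, and a call is an adjusted p under 0.05. Ratios of dim spots are drawn towards 0 by the offset, and their size depends on how the background was corrected. Channel levels were taken after scaling the mean intensities of all arrays to 1 distribution (Aquantile).

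Of 23232 spots 11724 had a gene symbol, 55 by accession, 3562 by current symbol, 7978 by older name and 129 by the array's own name. The genes, roles and lists were chosen with earlier results of these data known. Named are 14 set markers, up to 3 genes of each role with the smallest p for larva over adult, the called genes and the 5 smallest p-values at each concentration, and further probes of these genes where the sign differs. Genes named beyond that, such as those in full separation or with a strong second probe, were chosen after their values were seen. Tests were tried on simulated data. The number of arrays limits the precision. Genome positions, probe sequences and promoters were not analysed here. Figures were drawn with matplotlib 3.10.9 in Python 3.11.15.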

Additional observations from a re-analysis of the deposited data

Results flagged for a closer look

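In groups of 4 or 5 arrays, 1 array of a named gene stood apart from the others by Dixon's criterion in 6 of 126 combinations of gene and group, and chance alone gives about 1 in 20. Control replicate 4 was the array set apart for 3 genes. There aurkb had a log2 ratio of larvae over adults of -0.23, against -2.34 to -2.0 on the other control arrays, bub3 had -0.38, against 0.46 to 0.54, and kif23 had -0.79, against 0.15 to 0.27. At 4500 µg/L, replicate 4 gave rfc5 a ratio of -2.23, against -1.09 to -0.93 on the other arrays of the group. At 500 µg/L, cdc14aa had 0.73 on replicate 2, against 0.03 to 0.21 on the others, and tfdp1a had 0.81 on replicate 1, against -0.43 to -0.16.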

How the results depend on the processing

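Larva over adult, with every spot, gave 9 higher and 12 lower genes, and 5 to 9 higher and 7 to 14 lower genes when 1 array was left out (5 and 7 without control replicate 3). With kept spots the 4 higher and 1 lower genes became 2 to 5 and 0 to 1. At 4500 µg/L the 3 calls became 0 to 11 (11, or 12.1% beside 12.6% of probes, without replicate 4 of that group, 0 without replicate 2), and with kept spots 0 to 2. The F-test's 8 genes became 1 to 17, and with kept spots 0 to 5. Without background correction 0 genes were called at 4500 µg/L, 5 by the F-test, and 0 were lower with kept spots. Median centring gave 0 lower and 2 by the F-test with kept spots. A fit of 18 separate scans counts repeated scans of 1 array as independent arrays, so its calls overstate the evidence. With 18 separate scans 1 gene was called at 1500 µg/L, 7 at 4500 µg/L and 20 by the F-test (1.57%, 7.15% and 21.6% of probes), and with kept spots 5 were lower, 2 were called at 4500 µg/L and 10 by the F-test (17.8%, 4% and 23.5% of probes). Array quality weights gave 4, 6 and 22 (2.8%, 6.16% and 21.9% of probes), and with kept spots 3 lower, 2 at 1500 µg/L, 2 at 4500 µg/L and 8 by the F-test (15.3%, 13%, 8.92% and 43.6% of probes). A Cy3 background block left 0 at 4500 µg/L and 0 by the F-test. Without the arrays of low Cy3 background 1 gene was called at 1500 µg/L and 0 at 4500 µg/L. A correction for position gave 0 lower with kept spots. With at least 2 kept values per group 6 genes were lower, and 2 passed the F-test. The methods' t-test with Benjamini-Hochberg adjustment gave 0 higher and 1 lower gene with every spot, 0 at 4500 µg/L and 0 by the methods' F-test, and 0 higher and 0 lower with kept spots. The methods apply that t-test only to genes passing the F-test first, so in this fit 0 of 91 genes pass both steps. The fit used 16 arrays and ratios computed here, while the methods used 18 arrays and the authors' own ratios. It therefore does not repeat the authors' test, and does not show which genes passed there. Without the first step 10, 7 and 20 of 91 genes had an unadjusted p under the threshold at 500, 1500 and 4500 µg/L (5.1%, 8.89% and 14.2% of all probes). Counts in this section without a share of all probes give only the range between settings. They do not set these genes apart from the other probes.

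Arrays with the same replicate number were not treated as pairs in the main fits. Deviations from the group means correlated at a median r of 0 over 21 same-numbered pairs (-0.282 to 0.295), and at -0.006 over 74 others. These values cannot show whether same-numbered pools came from 1 batch of embryos. With the replicate block, 1 gene passed the F-test with every spot, and 1 was higher and 0 lower with kept spots. At 4500 µg/L it gave cdk1 an adjusted p of 0.0543 and tfdp1a one of 0.0596. Exchanging every spot for kept spots, or the reverse, gives the pair of counts above (9 and 4 higher, 12 and 1 lower, 3 and 0 at 4500 µg/L, 8 and 0 by the F-test). Of 92 values of named genes 21 passed, and of their 538 alternatives 438 passed in the same direction, 95 did not pass and 5 turned, all in another probe of the gene: cdk1 0.38, rrm2 0.0435, aurkb 0.31 and e2f4 -0.23 for larva over adult, and tfdp1a 0.14 at 4500 µg/L. Among the 538 are fits without an array outside the groups compared, which can change the adjusted p but not the value itself. A call kept in such a fit says little about how stable it is. Of 2364 alternatives of all named values, 97 changed sign with no call before or after. The call of cdk1 at 4500 µg/L held in 14 of 26 settings (adjusted p from 0.00363 to 0.309), that of lig1 in 20 of 25 (0.00572 to 0.202) and that of tfdp1a in 13 of 28 (0.00638 to 0.269). These settings include fits without an array at a lower concentration, which cannot change the 4500 µg/L difference. In each of them it stayed at 1.28 for cdk1, 1.5 for lig1 and -1.23 for tfdp1a, and each call held. The settings also include the fit of 18 separate scans, which counts repeated scans as arrays, and each call held there too. The counts therefore overstate how well the calls held. Causes of the shifts between settings were not tested. The low share of genes above background in the larval channel limits every result.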
